A study of Mus musculus with 3 samples.

Results

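A comparison was made between inguinal adipose tissue of mice in which *Mgp* was deleted in the *Pdgfra* lineage only (*Pd*-KO) and of mice in which *Mgp* was deleted globally (*Mgp*-KO). Both single-cell libraries carry a loss of *Mgp*, so the comparison asks what the cells outside the *Pdgfra* lineage, which were meant to keep the gene, add to the picture. The rule took barcodes with at least 2000 unique molecular identifiers (UMIs, one per captured transcript) and at most 10% mitochondrial UMIs, and split them into cells with at least 1 *Pdgfra* UMI and cells with 0. It kept 8819 *Pd*-KO cells and 12575 *Mgp*-KO cells, 21394 of the 31905 cells in the 3 libraries of the series. The 10511 cells of the wild-type library serve as a reference level.

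The *Pd*-KO mice carried *Mgp*-floxed alleles, made in the laboratory of the authors, and the Tg(Pdgfra-cre)1Clc transgene, in which *Pdgfra* regulatory sequence drives Cre recombinase. The *Mgp*-KO mice carried the Mgptm1Kry mutation of the strain B6.129S7, which the paper uses as a global deletion of *Mgp*. All mice were 4 weeks old. In each genotype, the stromal vascular fraction (SVF) of inguinal fat from females and males was pooled, depleted of CD45+ immune cells and sequenced as 1 library. There is thus no replicate on either side, no p-value was computed, and intervals are given at 95% for the error of counting UMIs or cells alone. No library of floxed mice without Cre was analysed here, so effects of the cell types in which *Mgp* was deleted, of the allele and of the Cre transgene cannot be told apart.

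Matrix Gla protein (MGP) is a secreted protein that binds bone morphogenetic proteins (BMPs) and limits their signaling, which in turn affects signaling by transforming growth factor β (TGFβ). It is best known for keeping arteries and cartilage free of mineral. In adipose tissue, PDGFRα marks adipose progenitor cells (APCs), the fibroblast-like cells that give rise to adipocytes, and *Dpp4* marks the interstitial progenitors upstream of committed preadipocytes. Endothelial cells, smooth muscle cells and pericytes are usually low in *Pdgfra*, although Cre deletes a floxed gene for good in any cell with an ancestor that used the promoter.

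Genotyping primers that the paper lists for the alleles are shown in part. Whether and how the alleles differ at these sites was not determined here. Sequences run 5′ to 3′, and capitals are not used.
Mgp WT forward: gccacaatttctgcatcctgc
Mgp WT reverse: cgggaaagatgaggaagaaggg
Mgp mutant forward: tgcctgaagtagcggttgta
Mgp flox forward: cttagaaactgctgggtcacgtagc
Mgp flox reverse: cttatttgtcacacgctgtcactgtc
Pdgfra-Cre forward: tcagccttaagctgggacat
The mutant forward primer matched positions 367 to 386 of the 617-base transcript Mgp-201 on the opposite strand, so it lies in transcribed *Mgp* sequence. The Cre forward primer matched positions 271 to 290 of the 1138-base transcript Pdgfra-203 on the same strand. The other primers printed matched no annotated transcript of GENCODE M21. In that annotation (GRCm38), *Mgp* lies on the minus strand at chr6:136872435-136875823 and *Pdgfra* on the plus strand at chr5:75152292-75198215.

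The libraries differed in ways other than genotype. The median was 8269 UMIs per kept cell in *Pd*-KO and 6445 in *Mgp*-KO, with medians of 2.26% and 1.5% mitochondrial UMIs, and 187 and 4 barcodes over the mitochondrial limit. Of cells whose sex could be called from *Xist* and 4 Y-linked genes, 45.2% were female in *Pd*-KO and 80.5% in *Mgp*-KO, so key ratios are also given within female and within male cells. The paper reports slightly fewer females than males among the mice of both knockout pools, so these shares describe called cells and not mice. A call can rest on 1 UMI, and errors in the calls were not tested. The 2 knockout libraries shared 35 cell barcodes, 0.397% and 0.278% of their cells. Barcodes of 10 to 100 UMIs, read below as free RNA, held 3343529 UMIs in *Pd*-KO, 790433 in *Mgp*-KO and 1149249 in wild-type. All barcodes together held 83942865, 93212243 and 184102026 UMIs. *Pd*-KO thus had the largest load of free RNA, and the part of this load in the ratios below was not tested. The file headers name Cell Ranger 7.1.0 for both knockouts and version 4 for the wild type; whether intronic reads were counted is not stated in the headers, so differences from the wild-type level cannot be told apart from a difference in counting.

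The *Pdgfra* split gave similar shares in both knockouts. *Pdgfra* was detected in 6374 of 8819 *Pd*-KO cells (72.3%, 71.3 to 73.2) and in 9099 of 12575 *Mgp*-KO cells (72.4%, 71.6 to 73.1). With each cell thinned to 2000 UMIs, and the split made anew, the shares were 38.2% and 40.7%. The detection of *Pdgfra* did not separate cell types cleanly: a *Pdgfra* UMI was found in 18.9% and 21.9% of cells with an endothelial marker profile (5.65% and 8.2% thinned), against 86.1% and 79.3% of cells with an APC marker profile (45.4% and 44.4% thinned). At a threshold of 1 UMI, *Pdgfra* 0 cells therefore include APCs in which no molecule was captured. Among *Pdgfra* ≥1 cells, 91.7% in *Pd*-KO and 95.3% in *Mgp*-KO fell in the APC class.

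The *Pdgfra* level in *Pdgfra* ≥1 cells, which the split itself selects, was 365 CPM (counts of a gene per 1e6 UMIs summed over the cell set) in *Pd*-KO, 383 CPM in *Mgp*-KO and 286 CPM in wild-type. These levels differed by a log2 ratio of -0.07 for *Pd*-KO over *Mgp*-KO.

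The targeted gene was all but absent from *Pdgfra* ≥1 cells of both knockouts. *Mgp* was counted at 1.92 CPM in *Pd*-KO (120 UMIs in 45 of 6374 cells) and at 0.699 CPM in *Mgp*-KO (48 UMIs in 33 of 9099 cells), against 474 CPM in wild-type, where 48.7% of *Pdgfra* ≥1 cells held an *Mgp* UMI. The level in *Pd*-KO was higher than in *Mgp*-KO by a log2 ratio of 1.46 (0.97 to 1.98). This difference was carried mainly by cells outside the APC class. In *Pdgfra* ≥1 APCs the levels were 1.07 and 0.745 CPM and the interval of the log2 ratio included 0 (0.53, -0.04 to 1.10). In *Pdgfra* ≥1 cells with endothelial markers, *Pd*-KO had 9.76 CPM and *Mgp*-KO 0, and in those with smooth muscle and pericyte markers 22.7 CPM and 0. With each cell thinned to 2000 UMIs, the share of *Pdgfra* ≥1 cells with an *Mgp* UMI was 0.148% in *Pd*-KO and 0.195% in *Mgp*-KO.

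In *Pdgfra* 0 cells, *Mgp* was higher in *Pd*-KO and remained below the wild-type level. The *Pd*-KO library held 1260 *Mgp* UMIs in 94 of 2445 cells (89.8 CPM), the *Mgp*-KO library 109 UMIs in 9 of 3476 cells (5.22 CPM), and wild-type 351 CPM with 35.5% of cells positive. The share of positive cells was 3.84% (3.12 to 4.68) in *Pd*-KO and 0.259% (0.118 to 0.491) in *Mgp*-KO, or 1.41% and 0.121% after thinning. The log2 ratio was 4.11 (3.82 to 4.40). A single male *Mgp*-KO cell of the APC class contributed 97 of the 109 UMIs, and without the cell with most *Mgp* in each library the log2 ratio was 7.14. That cell also set the ratio within male cells, 0.67, whereas it was 7.40 within female cells.

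The *Mgp* that remained in *Pd*-KO was concentrated in few cells of the vessel wall. Marker classes were assigned to *Pdgfra* 0 cells by at least 3 detected genes of a list. Cells that reached no such class were APCs if they held at least 6 of 8 APC markers. In the smooth muscle and pericyte (mural) class, *Pd*-KO had 433 CPM (405 to 462; 878 UMIs in 45 of 433 cells), *Mgp*-KO 8.66 CPM (6 UMIs in 2 of 178 cells) and wild-type 316 CPM. The summed level in *Pd*-KO mural cells was thus above that of wild-type, and the log2 ratio to *Mgp*-KO was 5.64 (4.52 to 7.09). Positive cells were nevertheless rarer than in wild-type, where free RNA also held more *Mgp* (below). They made up 10.4% (7.68 to 13.7) of *Pd*-KO mural cells and 33.1% (30.0 to 36.4) of wild-type mural cells, or 6.58% and 21.9% after thinning. Of the *Pd*-KO mural UMIs, 55.6% lay in 10 cells, with up to 122 in 1 cell, and 20 of 433 cells (4.62%) held at least 20 UMIs, against 27 of 866 (3.12%) in wild-type. In wild-type, 30.9% of the mural *Mgp* UMIs lay in 10 cells.

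In the endothelial class, *Mgp* was low in *Pd*-KO as well. There were 155 UMIs in 20 of 652 *Pd*-KO cells, a level of 52.0 CPM (44.1 to 60.8), and 89.0% of them lay in 10 cells. No *Mgp* UMI was found in 228 *Mgp*-KO endothelial cells (95% upper bound of the share 1.60%), so *Pd*-KO was at least 15.1-fold higher against a limit of 3 counts (at least 2.24-fold in female and 2.32-fold in male cells, with fewer cells in each). The wild-type level was 700 CPM with 33.4% of cells positive, against 3.07% (1.88 to 4.70) in *Pd*-KO. Of the wild-type endothelial *Mgp* UMIs, 46.7% lay in 10 cells. Endothelial cells, which the design leaves with an intact gene unless an ancestor expressed Cre, thus held *Mgp* far less often in *Pd*-KO than in wild-type. Free RNA, read from barcodes of 10 to 100 UMIs, held 6.28 CPM of *Mgp* in *Pd*-KO, 1.27 in *Mgp*-KO and 359 in wild-type, and epithelial cells, which use little *Mgp*, held 7.37, 0.201 and 21.0 CPM. An *Mgp* UMI was found in 5.71%, 0.187% and 31.5% of epithelial cells, with a median depth of 19837 UMIs in wild-type. The wild-type epithelial share was thus near the wild-type endothelial share. The part of free RNA in the wild-type shares was not tested.

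Cells that passed no marker threshold also held *Mgp* in *Pd*-KO. They had 276 CPM (185 UMIs in 16 of 171 cells), with no UMI in 78 *Mgp*-KO cells, at least 25.5-fold higher. *Pdgfra* 0 APCs had 4.80 CPM in *Pd*-KO, 7.91 in *Mgp*-KO and 670.1 in wild-type, so in this class the value did not stand above that of the global knockout (log2 ratio -0.72, -1.35 to -0.13, with the *Mgp*-KO value set by the 1 cell of 97 UMIs).

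**Figure D1:**
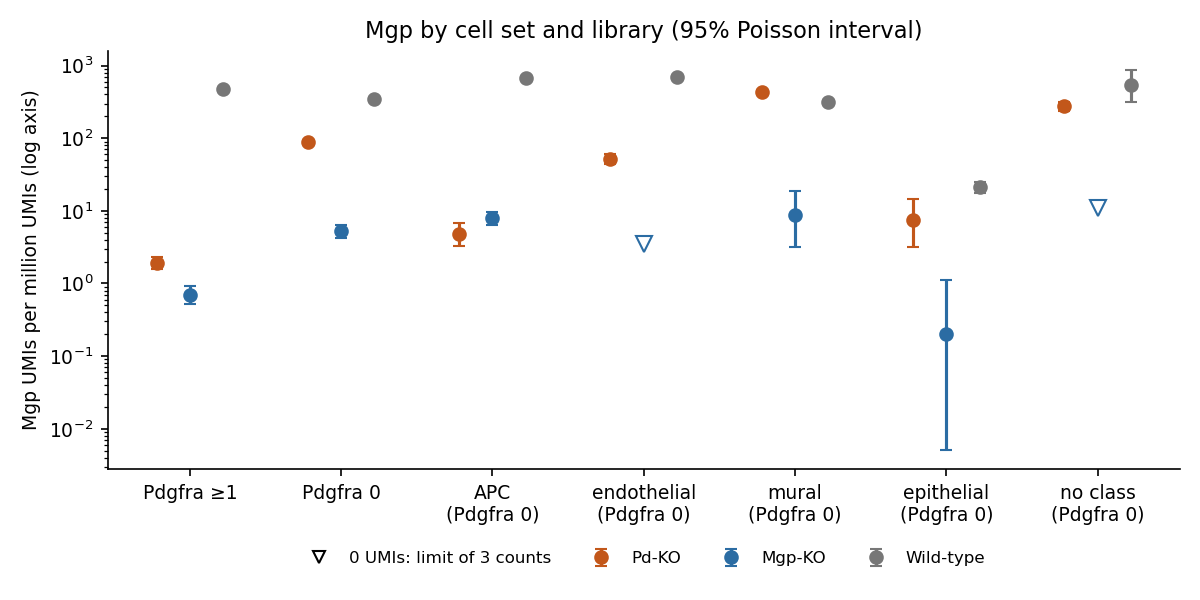
*Mgp* in CPM (log axis) by cell set for the *Pd*-KO, *Mgp*-KO and wild-type libraries, with 95% Poisson intervals; open triangles mark the limit that 3 counts give where no UMI was found, and mural means the smooth muscle and pericyte class. *Pd*-KO lies near *Mgp*-KO in *Pdgfra* ≥1 cells and APCs (1.92 and 0.699 CPM in the former), and is closest to wild-type in mural cells and cells without a class (433 and 276 CPM).

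The make-up of *Pdgfra* 0 cells differed between the knockouts. Endothelial cells made up 652 of 2445 *Pdgfra* 0 cells in *Pd*-KO (26.7%, 24.9 to 28.5) and 228 of 3476 in *Mgp*-KO (6.56%, 5.76 to 7.43), with 24.3% in wild-type. Mural cells made up 17.7% (16.2 to 19.3), 5.12% (4.41 to 5.91) and 30.8%. In both vascular classes *Pd*-KO was thus the higher of the 2 knockouts. Epithelial cells, which line the mammary duct in the inguinal pad of females, showed the reverse, with 4.29% (3.53 to 5.18) in *Pd*-KO, 15.4% (14.2 to 16.6) in *Mgp*-KO and 9.26% in wild-type, and so did APCs with no *Pdgfra* UMI, with 38.5%, 65.1% and 20.6%. Fewer cells of a type and poorer recovery of that type cannot be told apart in 1 library a side.

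The same directions were found with each cell thinned to 2000 UMIs, at 12.9% and 3.15% for endothelial cells, 6.97% and 2.79% for mural cells, 2.22% and 7.73% for epithelial cells and 68.0% and 78.1% for APCs. Within female cells the endothelial shares were 23.8% and 4.04%, and within male cells 28.2% and 10.4%. The epithelial shares were 9.99% and 22.9% within female cells and 1.84% and 5.95% within male cells. Few endothelial cells lay near the threshold, with 70 and 16 *Pdgfra* 0 cells at 2 of 8 markers and 12 and 7 at 3. More mural cells did, with 96 and 80 cells at 2 markers and 83 and 40 at 3. Most mural cells also held at least 3 markers of the APC list or of another list. When cells with at least 3 markers of 2 or more lists were left out, the mural shares were 3.97% and 2.89%. Leaving out only cells with 2 classes other than APC gave a difference in mural share of 12.8 points, against 12.6 for all cells.

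**Figure D2:**
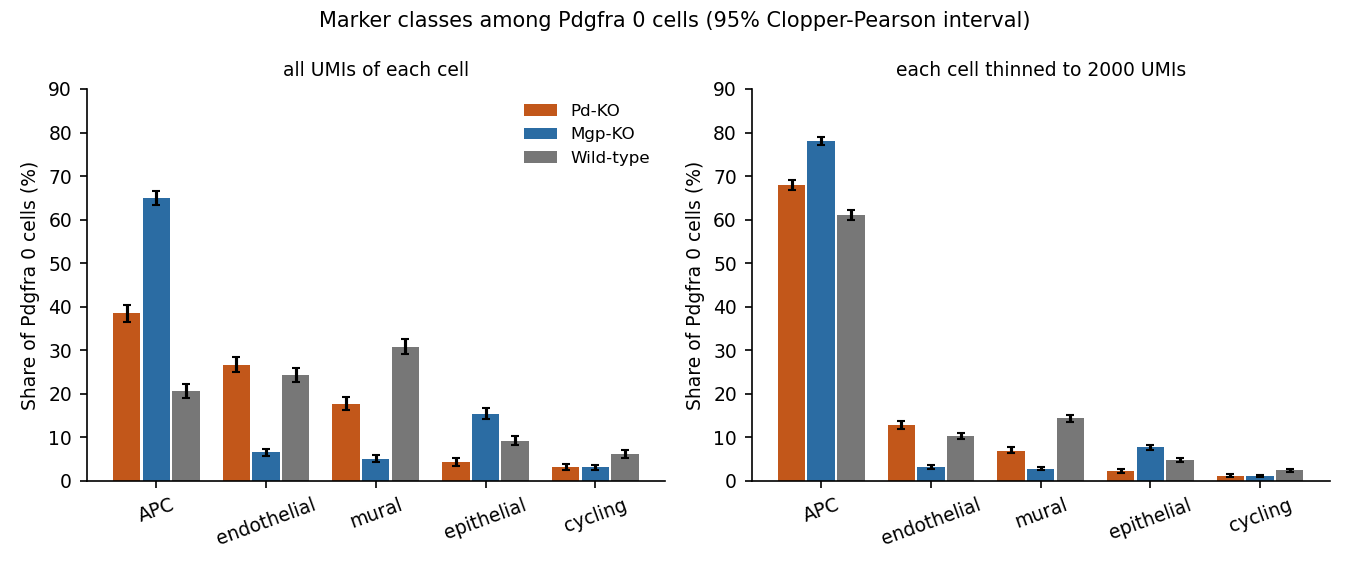
Share of *Pdgfra* 0 cells in 4 marker classes and with cycling markers, in percent, for all UMIs (left) and with each cell thinned to 2000 UMIs (right); bars are 1 library each, with 95% Clopper-Pearson intervals. Endothelial (26.7% and 6.56%) and mural bars are higher in *Pd*-KO than in *Mgp*-KO in both panels, and APC and epithelial bars are lower.

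In *Pdgfra* ≥1 cells, 14093 genes had at least 100 UMIs over both libraries. Of these, 452 were at least 2-fold higher (3.21%) and 607 at least 2-fold lower (4.31%) in *Pd*-KO than in *Mgp*-KO, 7.51% in all, around a median log2 ratio of 0.04. The balance depended on sex, since the higher genes were 42.7% of those past 2-fold in all cells and 59.0% in male cells alone. Of the 550 genes past 2-fold that could also be tested within each sex, 543 had the same direction in female and in male cells. These cells are part of the pooled sums that selected the genes, so agreement is partly built in.

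The genes highest in *Pd*-KO *Pdgfra* ≥1 cells, among those with at least 50 CPM in 1 knockout, included genes of secreted proteins. *Eln*, which encodes elastin, was at 1903 CPM in *Pd*-KO, 660.3 in *Mgp*-KO and 551 in wild-type, a log2 ratio between the knockouts of 1.53, 1.51 to 1.54. *Sema3c*, a secreted semaphorin, was at 889, 294 and 183 CPM (log2 1.60, 1.57 to 1.62), and *Sema3d* at 123, 44.6 and 20.6. *Igfbp5*, an insulin-like growth factor binding protein, was at 1474, 581 and 914 CPM (log2 1.34, 1.33 to 1.36). For each of these genes the value in *Pd*-KO was the highest of the 3 libraries. Above that minimum the largest ratio was that of *Adamts16*, a secreted metalloprotease, at 50.1 and 9.65 CPM (log2 2.38, 2.26 to 2.5). *Pcsk6*, a proprotein convertase, *Limch1*, *Zfp462*, *Ston2*, *Ano3* and *Krtdap* had log2 ratios of 1.29, 1.52, 1.49, 1.49, 1.37 and 1.46. *AY036118*, a transcript tied to ribosomal RNA, was at 233 and 77.1 CPM, and in free RNA at 4683 and 492; the part of free RNA in its ratio was not tested.

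Among genes with a name and at least 50 CPM in 1 knockout, *Sntg1*, which encodes a syntrophin, was the lowest in *Pd*-KO. It was at 0.994 CPM in *Pd*-KO, 146 in *Mgp*-KO and 1.97 in wild-type, a log2 ratio of -7.19, -7.58 to -6.84. *Sntg1* was detected in 22.6% of *Mgp*-KO *Pdgfra* ≥1 cells and in 0.737% of those of *Pd*-KO, and the same pattern held in *Pdgfra* 0 cells (1.35 and 72.6 CPM). *Mgp*-KO was thus the library that stood apart for this gene. *Gabra3*, a GABA receptor subunit, was at 15.3 and 92.5 CPM, and *Has1*, a hyaluronan synthase, at 46.1 and 297 CPM with 43.8 in wild-type (log2 -2.69, -2.75 to -2.63). *Ptx3*, a soluble pattern recognition protein, was at 40.5 and 299 CPM, and *Apoc1* at 9.05 and 62.3 CPM with 231 in wild-type.

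**Figure D3:**
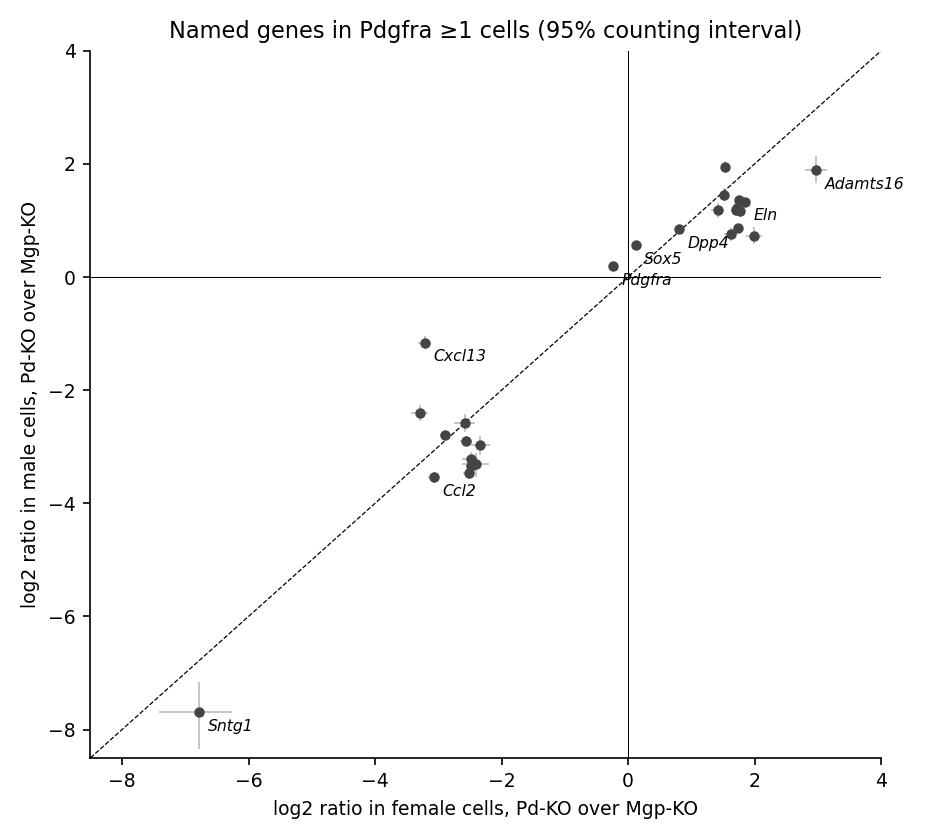
Log2 ratio of *Pd*-KO over *Mgp*-KO within female cells (x axis) and within male cells (y axis) for the 12 highest and 12 lowest genes, *Dpp4*, *Sox5* and *Pdgfra* in *Pdgfra* ≥1 cells, with 95% counting intervals; the dashed line marks equal ratios. The highest and lowest genes keep their sign in both sexes, *Sntg1* lies at -6.78 and -7.69, *Cxcl13* at -3.21 and -1.16, and *Pdgfra* has opposite signs.

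Interstitial progenitor genes lay above the median of all genes. All 12 of the 12 genes on the list had a log2 ratio above 0 and 2 were past 2-fold, *Sema3c* and *Limch1*, with a list median of 0.64 against 0.04 for all genes (0.83 in female and 0.43 in male cells). *Dpp4*, the peptidase that marks these cells, was at 482 CPM in *Pd*-KO, 263 in *Mgp*-KO and 104 in wild-type (log2 0.88, 0.85 to 0.90, within 2-fold). It was detected in 66.8%, 54.5% and 38.8% of *Pdgfra* ≥1 cells, or 42.3%, 31.8% and 15.8% after thinning. In endothelial cells, which should lack it, the shares were 3.37%, 3.07% and 6.15%, with median depths of 3892.5, 3266.5 and 5933 UMIs, so the *Pdgfra* ≥1 values lay well above that level. *Pi16*, a further marker, was at 1535, 958 and 648 CPM, and *Cd248*, endosialin, at 843, 429 and 487.

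*Sox5*, a transcription factor of chondrogenesis, was at 283 CPM in *Pd*-KO, 206 in *Mgp*-KO and 9.71 in wild-type (log2 0.46, 0.43 to 0.49). Both knockouts thus stood above the wild-type library, with the ratio between them at 0.12 in female and 0.56 in male cells. The step from wild-type cannot be told apart from the difference in counting version. *Sox5* lies 6.95 megabases from *Mgp* on the same chromosome, so strain, allele and loss of *Mgp* cannot be told apart for it either.

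More committed preadipocyte genes lay below 0 than above. Of 13 genes, 9 had a log2 ratio below 0 and 4 above. None was past 2-fold higher and 2 were lower, *Icam1* and *Apoe*, with a median of -0.17 (-0.01 in female and -0.39 in male cells). For this and the other lists of this paragraph, the shares over all genes were 3.21% higher and 4.31% lower. *Icam1*, an adhesion molecule used to sort preadipocytes, was at 25.5, 120.0 and 112 CPM (log2 -2.24, -2.32 to -2.16), and *Apoe*, a lipid carrier, at 751, 2340.1 and 7155 CPM (log2 -1.64, -1.65 to -1.62). *Pparg*, the master regulator of adipogenesis, was at 67.5, 43.3 and 51.9 CPM, within 2-fold between the knockouts. Among 14 adipogenic transcription factors, *Ebf2*, an early B-cell factor of adipose progenitors, was higher (736 and 356 CPM). *Cebpd*, *Cebpb* and *Klf15* were lower, with 144 and 596 CPM for *Cebpd* and 98 and 302 CPM for *Cebpb*, both of which also respond early to stress. Adipocyte lipid genes had a median of -0.07, with 0 of 19 past 2-fold higher and only *Cfd* (adipsin) lower. In APCs alone the median was -0.38 for these genes and -0.59 for preadipocyte genes. Genes of regulatory adipogenesis-inhibiting cells (Aregs) had a median of 0.24 with 1 of 8 past 2-fold, *Meox2*. The list of further stromal subsets had a median of -0.31, with 1 of 7 lower.

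Most collagens had a ratio above 0 and within 2-fold, and matrix genes past 2-fold were split. Of 16 fibrillar and network collagens, 13 had a ratio above 0 and 2 were past 2-fold, *Col5a1* and *Col8a1*, with a median of 0.63 (0.73 in female and 0.40 in male cells). *Col1a1* was at 19890.0 CPM in *Pd*-KO, 10414 in *Mgp*-KO and 12179 in wild-type (log2 0.93, 0.93 to 0.94), and *Col3a1* at 34917, 21490.5 and 24369. The summed level of the list was 88842 CPM in *Pd*-KO and 53309 in *Mgp*-KO, with 61369.7 in wild-type. Of 28 matrix proteins and crosslinking enzymes, *Eln* and *Fbn1* (fibrillin, 2787 and 1284 CPM) were past 2-fold higher. *Tnc* and *Thbs1*, which encode tenascin and thrombospondin, were past 2-fold lower (list median 0.29).

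In the pathways in which MGP acts, genes past 2-fold were found among BMP ligands. Of 26 BMP ligands, receptors and antagonists, 4 were higher and 0 lower (median 0.42), against 3.21% of all genes higher, and these 4 were all ligands. *Bmp6* was at 34.9 and 11.5 CPM (log2 1.60, 1.49 to 1.72) and *Bmp3* at 20.1 and 6.49, whereas *Bmp5* and *Gdf6* were at or below 2 CPM in both. In *Pd*-KO free RNA *Bmp6* was at 52.3 CPM, above its level in these cells, whereas in *Mgp*-KO free RNA it was below that level. The part of free RNA and of endothelial cells in the *Bmp6* ratio was not tested. Of 12 BMP response genes only *Id1*, a target of BMP receptors that inhibits differentiation factors, was past 2-fold, at 17.4 CPM in *Pd*-KO, 48.7 in *Mgp*-KO and 62.8 in wild-type (log2 -1.48, -1.58 to -1.38; list median -0.14). Among 24 TGFβ ligands, receptors and Smads, 0 were higher and 1 was lower, *Inhbb*, an activin subunit (median 0.25). Wnt genes had 1 of 32 higher (*Wnt10b*) and 1 lower (*Tcf7*), with a median of 0.32.

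TGFβ response genes were unequal. Of 18, 6 were past 2-fold lower, against 4.31% of all genes, and 0 higher, with a median of -0.53 (-0.51 in female and -0.20 in male cells). Among them were *Tnc*, *Cdkn1a*, *Junb*, *Ccn1* and *Ccn2*. *Ccn1*, a secreted matricellular protein, was at 198 CPM in *Pd*-KO, 522 in *Mgp*-KO and 290.3 in wild-type cells. *Junb*, *Ccn1* and *Cdkn1a* are also early response genes. Of the 18 genes, 13 were below 0 and 5 above. *Col1a1* (above) and *Fn1*, fibronectin (3222 and 2298 CPM), were above 0 and within 2-fold, whereas the matrix gene *Tnc* was lower.

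The lists furthest from the median of all genes were those of the early stress response. Of 24 immediate early genes, which are induced within minutes of a stimulus, 20 were past 2-fold lower in *Pd*-KO and all 24 had a ratio below 0, with a median of -1.64 (-1.61 in female and -1.48 in male cells). *Fos* was at 764 CPM in *Pd*-KO, 2644 in *Mgp*-KO and 1755 in wild-type, *Jun* at 1013, 3258 and 2406, and *Atf3* at 59.5, 429 and 289 (log2 -2.85, -2.90 to -2.80). For each of these genes *Pd*-KO was the lowest library and *Mgp*-KO the highest. Of 14 heat shock genes, 7 were past 2-fold lower and all 14 below 0 (median -1.03), with the chaperone gene *Hspa1a* at 22, 183 and 278 CPM. Of 19 chemokines and cytokines, 9 were lower and 0 higher (median -0.97). *Ccl2*, which attracts monocytes, was at 44.9, 419 and 236 CPM (log2 -3.22, -3.28 to -3.17), *Cxcl1* at 79.8, 555 and 494, and *Cxcl2*, both neutrophil chemokines, at 0.641, 39.2 and 37.7. *Ccl7* was at 26.9 and 178 CPM. *Cxcl13*, a B cell chemokine, was at 43.4, 269.8 and 56.2 CPM. The medians of these 3 lists were -1.67, -1.05 and -0.96 in APCs alone. In free RNA, *Ccl2* was at 44.6, 602 and 223 CPM, *Atf3* at 65.8, 745 and 989, and *Hspa1a* at 30.5, 353 and 292. The part of free RNA in the values of these lists, here and in endothelial and mural cells below, was not tested. *Mgp*-KO also had a lower depth and a larger share of cells called female than *Pd*-KO. Over the alternatives, which covered depth, thinning and sex, the median of immediate early genes ran from -1.68 to -1.43. That of heat shock genes ran from -1.07 to -0.97, and that of chemokines and cytokines from -1.30 to -0.90. The lists thus kept their direction, also within each sex. The cause of these differences was not tested.

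Of the promoters of immediate early genes, 2 held the cyclic AMP response element, and these stretches are shown. Both genes were lower in *Pd*-KO, as were all 24 genes of the list, so their direction says nothing about the element. A part of the element in these values was not tested. The element (TGACGTCA, on either strand) was searched in the 250 bases before the start of the RefSeq gene (GRCm38.p6) and is in capitals.
Btg2, chr1:134079278-134079357, minus strand: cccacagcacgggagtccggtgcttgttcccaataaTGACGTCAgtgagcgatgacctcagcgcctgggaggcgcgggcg
Dusp1, chr17:26508572-26508651, minus strand: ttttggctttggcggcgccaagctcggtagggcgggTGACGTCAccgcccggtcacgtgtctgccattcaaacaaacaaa
In *Btg2* it lies 166 to 159 bases and in *Dusp1* 143 to 136 bases before the start. It was found in 2 of the 19 immediate early genes with a promoter (10.5%), in 439 of 27025 promoters overall (1.62%), and in none of 11 heat shock or 18 chemokine promoters. *Btg2* was at 98 CPM in *Pd*-KO, 344 in *Mgp*-KO and 297 in wild-type, and *Dusp1*, a phosphatase of MAP kinases, at 154, 551 and 547. The CArG box, bound by serum response factor, was found in 1 of 19 (*Zfp36*) and in 1.40% of all promoters. The heat shock element was found in 1 of 11 heat shock promoters (*Hspe1*) and in 0.400% of all.

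Of 20 steroid and thyroid hormone response genes, 7 were past 2-fold lower in *Pd*-KO, against 4.31% of all genes. These were *Mt1*, *Mt2*, *Fkbp5*, *Zbtb16*, *Greb1*, *Tsc22d3* and *Klf15*. The list median was -0.53 (-0.81 in female and -0.29 in male cells). *Fkbp5*, a target of the glucocorticoid receptor, was at 30.2, 89.1 and 30.3 CPM, with log2 ratios of -2.12 in female and -1.40 in male cells. *Mt1*, a metallothionein, was at 255, 1239.8 and 1114 CPM. In free RNA it was at 196, 1914 and 5315 CPM, and the part of free RNA in its ratio was not tested. *Greb1*, an estrogen-induced gene, had -2.45 in female and -0.33 in male cells, at 3.74 and 10.6 CPM.

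Each of the lists in this paragraph held at most 3 genes past 2-fold in *Pdgfra* ≥1 cells, where 3.21% of all genes were higher and 4.31% lower. Interferon response genes had 2 of 22 higher (*Rsad2* and *Ifit1*) and 1 lower (*Irf1*), with a median of 0.60. None of 28 genes of oxidative phosphorylation was past 2-fold (median -0.17). Complement genes had 3 of 12 lower (-0.32), hypoxia and glycolysis genes 2 of 18 lower (-0.09), regulators of mineralization 2 of 12 lower (-0.13), chondrogenic genes 1 of 6 lower (-0.51) and nuclear transcripts 1 of 10 lower (-0.14).

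Markers of other cell types also differed in *Pdgfra* ≥1 cells. Of 8 endothelial markers 7 were past 2-fold higher in *Pd*-KO, with summed levels of 103 CPM against 36.6 in *Mgp*-KO, and none was at 0. The longer list of endothelial subtype genes had 10 of 23 higher and 1 lower (median 0.81), and its median was 0.00 in APCs alone. Of 14 genes in VEGF and angiopoietin signaling 3 were higher, *Tie1*, *Flt1* and *Kdr* (median 0.24, and 0.07 in APCs alone). Mural subtype genes had 5 of 20 higher and 1 lower. Of 8 epithelial markers 5 were lower, at 78.6 and 149.9 CPM summed, and none was at 0. In free RNA the epithelial markers *Wfdc2* and *Krt18* were at 17.6 and 56.2 CPM in *Pd*-KO and at 338 and 496 in *Mgp*-KO. *Flt1* was at 143 and 17.7 CPM there. The part of free RNA in these markers was not tested. The part of endothelial, mural and epithelial cells in the genes above was not tested gene by gene. In APCs alone, 346 genes were higher and 619 lower, 965 in all.

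**Figure D4:**
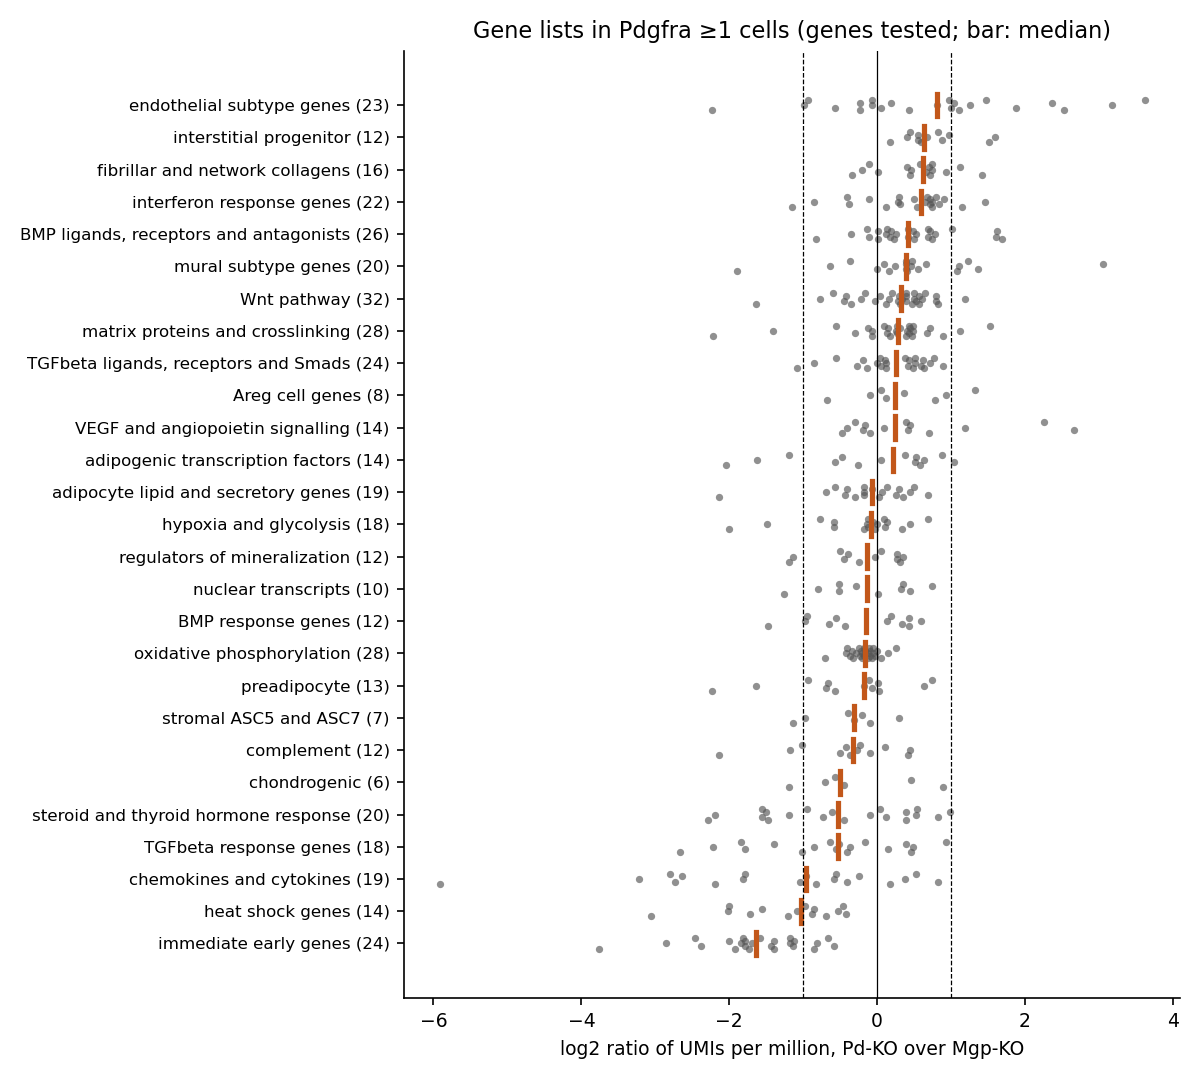
Log2 ratio of CPM, *Pd*-KO over *Mgp*-KO, in *Pdgfra* ≥1 cells for each gene tested (dots) of 27 lists, with the list median as a bar, the number of genes in brackets and 2-fold marked by dashed lines. Immediate early (-1.64), heat shock (-1.03) and chemokine (-0.97) genes lie furthest to the left, and endothelial subtype (0.81), interstitial progenitor (0.64) and collagen (0.63) genes furthest to the right.

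In *Pdgfra* 0 cells, 1101 of 12418 genes were at least 2-fold higher (8.87%) and 533 lower (4.29%), 13.2% in all, around a median of 0.16. With median-of-ratios scaling, which moves the median of all genes by over 0.1, 875 were higher and 665 lower, so the higher genes were 67.4% of those past 2-fold with CPM and 56.8% with that scaling. Endothelial and mural cells were more frequent in this set in *Pd*-KO (above), and their part in the counts was not tested. The genes highest in *Pd*-KO were *Glycam1*, a ligand of lymphocyte selectin in high endothelial venules (433, 14.3 and 1371 CPM, with 462, 62 and 404 in free RNA, so neither knockout stood above its free RNA), the pericyte gene *Rgs5* (413, 25.3 and 379 CPM) and the endothelial factors *Sox18*, *Mecom*, *Fli1* and *Aplnr*, with log2 ratios from 3.10 to 3.35. *Stac*, *H2-M9*, *Ablim3*, *Nr5a2*, *Ccdc85a* and *Cyyr1* completed the 12 highest. In free RNA of *Pd*-KO and *Mgp*-KO, *Stac* was at 53.8 and 5.06 CPM and *Ablim3* at 87.0 and 2.53. *Ccdc85a* was at 126 and 16.4 CPM there and *Rgs5* at 122 and 11.4. The part of free RNA in the ratios of these highest genes was not tested. Summed endothelial markers were at 1609 and 289 CPM (8 of 8 higher), mural markers at 2369 and 1744 (4 of 8 higher and 1 lower) and epithelial markers at 1201 and 3422 (8 of 8 lower). Epithelial *Krt14* and *Lcn2* were among the 12 lowest genes. *Cxcl13*, *Ccl2*, *Ccl7*, *Cxcl1*, *Atf3*, *Hspa1a*, *Ptx3*, *Has1*, *Gabra3* and *Sntg1*, which were also among the lowest in *Pdgfra* ≥1 cells, made up the rest.

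Within endothelial cells, where composition by class is held fixed, 243 of 5923 genes were at least 2-fold higher in *Pd*-KO (4.1%) and 94 lower (1.59%), 5.69% in all. All 8 markers that define the class were within 2-fold. Adhesion molecules of activated vessels were among the genes lower in *Pd*-KO. *Sele*, which encodes E-selectin, was at 11.7 CPM in *Pd*-KO, 91.8 in *Mgp*-KO and 24 in wild-type (log2 -2.96, -3.58 to -2.38), and *Selp*, P-selectin, at 54.7, 210.1 and 105 (log2 -1.94, -2.26 to -1.63). *Icam1* was at 55 and 156 CPM and *Vcam1* at 35.2 and 76.9. All 4 are adhesion molecules for leukocytes, and the remaining 20 of 25 subtype genes apart from *Glycam1* were within 2-fold. *Glycam1* was at 2019, 336 and 7058 CPM, with 2 UMIs in *Mgp*-KO female cells.

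Immediate early genes in endothelial cells had 10 of 19 past 2-fold lower and all 19 below 0 (median -1.03), heat shock genes 2 of 11 lower (-0.55) and TGFβ response genes 6 of 13 lower (-0.99). *Gdf15*, a stress-induced member of the TGFβ family, was at 4.03, 116 and 48.1 CPM (log2 -4.80, -5.85 to -3.98). *Mt1*, *Cxcl1*, *Cxcl10*, *Tnfaip6*, *Ier3*, *Cdkn1a*, *Gadd45b* and *Gadd45g* had log2 ratios from -3.58 to -2.07. The *Mgp*-KO endothelial class held more of some APC and mural RNA, with summed APC markers at 3236 and 3710 CPM and mural markers at 287 and 549, and the part of this RNA in the TGFβ response genes *Acta2*, *Tagln* and *Postn* was not tested.

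*Bmp6*, a BMP made by endothelial cells, was at 82.8 CPM in *Pd*-KO, 28.7 in *Mgp*-KO and 14.8 in wild-type (log2 1.5, 0.93 to 2.19), the only one past 2-fold of the 8 BMP genes tested. The *Bmp6* level in *Pd*-KO free RNA, 52.3 CPM, was below that of these cells, and the part of free RNA in the ratio was not tested. Cycling markers were at 224 CPM summed in *Pd*-KO, 34.4 in *Mgp*-KO and 192 in wild-type over all 8 markers. *Mki67*, a proliferation marker, was at 40.9, 2.3 and 33.3 CPM, with 122 and 2 UMIs in the knockouts. VEGF and angiopoietin genes had 0 of 9 past 2-fold (median 0.29), interferon response genes 0 of 18 (0.04) and BMP response genes 0 of 7 (-0.21). With at least 50 CPM in 1 knockout, the highest single genes were *Hbb-bs*, a globin, at 50.6 and 3.44 CPM (below its level in free RNA, 373 and 749), and *Ptchd4*, *Grin2a*, *Plxna4*, *Kcnc2* and *Pde4d*, with log2 ratios from 1.77 to 2.33. *Zfp827*, *Xylt1*, *Chst11*, *Pcp4l1* and *AY036118* had ratios of 1.89, 1.64, 1.56, 1.55 and 1.69.

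Within mural cells, 418 of 4807 genes were at least 2-fold higher in *Pd*-KO (8.7%) and 136 lower (2.83%), 11.5% in all, around a median of 0.13. With median-of-ratios scaling 294 were higher and 172 lower, so the higher genes were 75.5% of those past 2-fold with CPM and 63.1% with that scaling. *Acta2*, *Tagln*, *Cnn1* and *Rgs5* are among the 8 markers that set the class, so their values are a description of it. Without cells that passed 2 or more marker lists, 124 of the 786 genes that could still be compared were past 2-fold, of which 53.2% were higher, around a median of -0.08. Some pericyte genes were higher, with the potassium channel subunits *Kcnj8* at 375, 77.9 and 56.2 CPM and *Abcc9* at 519, 146 and 71.4. Both channel genes lie near *Mgp* on its chromosome (below). Strain, allele and loss of *Mgp* cannot be told apart for them. *Rgs5* was at 2664, 659 and 1570.3 CPM (log2 2.01, 1.88 to 2.15), and *Pdgfrb*, the pericyte receptor for PDGF, at 539, 222 and 315. Some contractile genes of smooth muscle were lower. Of the 8 markers that set the class, 3 were past 2-fold lower (*Acta2*, *Tagln* and *Cnn1*) and 1 higher (*Rgs5*), with a median of -0.19. The contractile gene *Myh11* and the markers *Notch3*, *Cspg4* and *Des* were within 2-fold. *Acta2* was at 5035 CPM in *Pd*-KO, 13248 in *Mgp*-KO and 9201 in wild-type (log2 -1.40, -1.44 to -1.35), *Tagln* at 3609, 8973 and 7540.3, and *Cnn1*, calponin, at 43.9, 264 and 127. Of 24 mural subtype genes, 5 were higher (also *Steap4*) and 6 lower (also *Actg2*, *Smtn* and *Pln*). Since one class holds both pericytes and smooth muscle, a difference in their proportions and a difference within each cell cannot be told apart here. Summed myoepithelial markers, which share contractile genes, were at 1.97 CPM in *Pd*-KO and 176 in *Mgp*-KO.

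**Figure D5:**
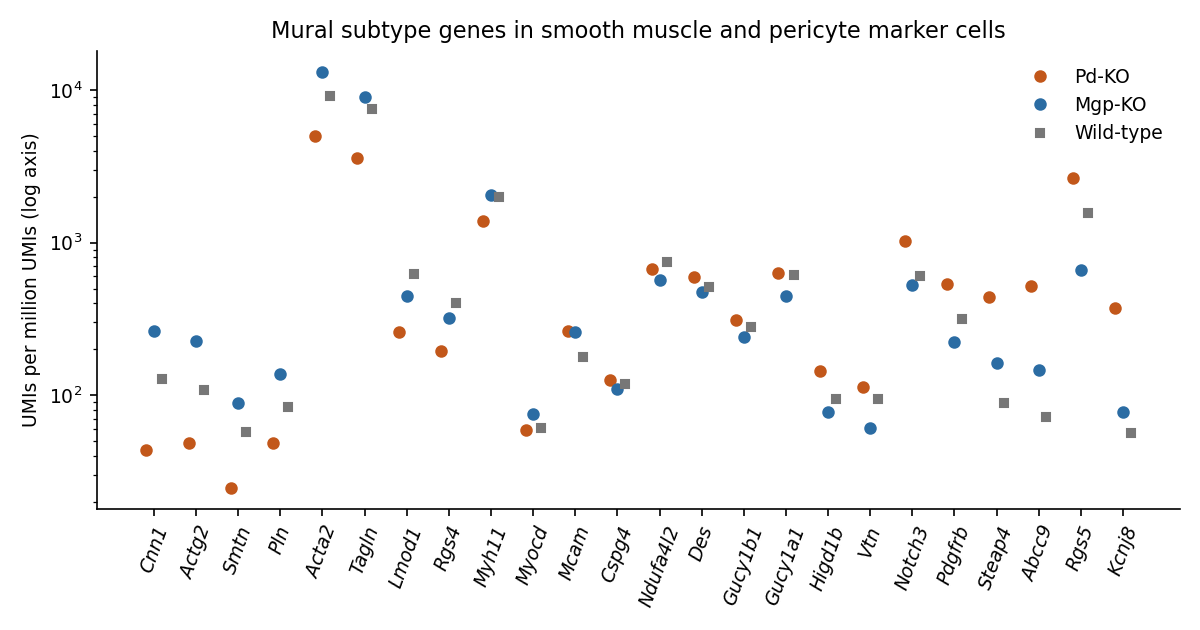
CPM (log axis) of the 24 mural subtype genes in *Pdgfra* 0 cells of the smooth muscle and pericyte class, ordered by the log2 ratio of *Pd*-KO over *Mgp*-KO; points are 1 library each. Contractile genes past 2-fold lower in *Pd*-KO lie at the left, as for *Cnn1* at 43.9 against 264 CPM. Pericyte genes past 2-fold higher in *Pd*-KO lie at the right, as for *Kcnj8* at 375 against 77.9 CPM.

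*Bmpr1b*, a BMP receptor, was at 56.2 CPM in *Pd*-KO mural cells, 8.66 in *Mgp*-KO and 3.07 in wild-type, from 114 and 6 UMIs in the knockouts. *Bmp5* was the other of 10 BMP genes past 2-fold. Among adipogenic transcription factors 4 of 9 were higher, *Ebf1*, *Ebf2*, *Zfp423* and *Pparg* (561, 247 and 161 CPM), and *Cebpb*, *Cebpd* and *Klf4* were lower. *Sox5*, which lies near *Mgp* on its chromosome (below), was at 1006, 335 and 55.3 CPM (log2 1.58, 1.39 to 1.79). It was detected in 80.6%, 48.9% and 30.0% of mural cells, at median depths of 4280, 3159.5 and 6495.5 UMIs. Interferon response genes had 7 of 12 higher, against 8.7% of all genes, and 1 lower, with a median of 1.02 (0.69 in female and 0.30 in male cells over the same 12 genes, and 0.38 to 1.02 over the alternatives, each with the genes that reached the count minimum under it). *Dlk1*, a preadipocyte factor, was at 167 and 34.6 CPM. Summed APC markers were at 6925 and 5881 CPM in these cells, and their part in these genes was not tested.

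In mural cells, immediate early genes had 16 of 19 past 2-fold lower (median -2.16), with *Atf3* at 79.4, 1144 and 275 CPM and *Fos* at 795, 4009 and 1483. Heat shock genes had 6 of 13 lower (-0.89) and TGFβ response genes 5 of 12 (-0.90). *Il17b*, a cytokine of the IL-17 family, had 0 UMIs in *Pd*-KO and 118 in *Mgp*-KO (170.3 CPM). *Cdkn1a*, *Klf2*, *Csrnp1*, *Dnajb1*, *Hspa1a*, *Hspa1b*, *Mt1*, *Tnfaip6* (higher, at 0.83 on the log2 scale in male cells alone and 0.34 without cells that passed 2 or more marker lists), *Gadd45g* and *Gdf15* were the other lowest genes, and *Rtp4*, *Htr7*, *Lrrc8d*, *Dapk2*, *Slc9b2*, *Arhgdib*, *Mndal*, *Ppfia2* and *AY036118* were among the 12 highest.

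The mutant strain carries 129S7 in its name, so genes next to *Mgp* were looked at on their own; the haplotype around the gene was not determined in either library. Of the 50 tested genes nearest to *Mgp*, up to 6.72 megabases away, 3 were past 2-fold higher and 5 lower in *Pd*-KO *Pdgfra* ≥1 cells, 16% against 7.51% of all genes. The nearest of these was *Art4*, 0.0147 megabases from *Mgp*, at 2.90 CPM in *Pd*-KO, 0.277 in *Mgp*-KO and 1.5 in wild-type (log2 ratio 3.36, 2.71 to 4.16). *Ldhb*, a lactate dehydrogenase subunit, was at 27.3, 63.3 and 73.2 CPM, and *St8sia1* at 0, 2.46 and 0.212 CPM. The other genes past 2-fold were *Hist4h4*, *Gm11077*, *Gm30524*, *Gm28523* and *1700060C16Rik*. In *Pdgfra* 0 cells 9 of the 50 nearest were past 2-fold (18% against 13.2%), 7 higher and 2 lower in *Pd*-KO. The higher genes were *Kcnj8*, *Abcc9* and *Sox5*, at 5.69, 5.71 and 6.95 megabases, and *Arhgdib*, *Gsg1*, *Apold1* and *Clec1a*. The lower genes were *Hist4h4* and *Bcl2l14*. In endothelial cells 2 of the 50 nearest were past 2-fold (4% against 5.69%). Of the 10 genes nearest to *Pdgfra*, 1 was past 2-fold in *Pdgfra* ≥1 cells and 1 in *Pdgfra* 0 cells, against 7.51% and 13.2% of all genes. In both sets it was the endothelial receptor gene *Kdr* (log2 1.19 and 2.42). In endothelial cells *Kdr* was within 2-fold, and 1 other gene of the 10 nearest was past 2-fold. Endothelial and mural cells were more frequent among *Pdgfra* 0 cells of *Pd*-KO (above). The strain, the allele, the loss of *Mgp* and the make-up of the cell sets cannot be told apart in these values.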

How the data were processed

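Single cells of the inguinal SVF were captured with 10x Genomics chemistry, 1 library a genotype. The authors made the deposited UMI counts per gene and barcode with Cell Ranger; their notes name version 6.1.1 and genome GRCm39, the file headers name 7.1.0 for the knockouts and 4 for the wild type, and the methods name mm10. The totals were 83942865 UMIs (*Pd*-KO), 93212243 (*Mgp*-KO) and 184102026 (wild-type) over 32285 genes.

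Barcodes with at least 2000 UMIs and at most 10% mitochondrial UMIs were kept, doublets were not removed, and counts were summed per library and cell set and scaled to the summed UMIs of that set as counts per 1e6 (CPM). Cells were placed in the class with the largest share of its markers detected, among classes with at least 3 detected, and ties were set apart. Only cells that reached no such class could be APCs, with at least 6 of 8 APC markers. Cells of 2 or more lists held at least 3 markers of each, with the APC list counted and the cycling list not. Log2 ratios used a prior count of 0.5 for tables of genes, and genes with at least 100 UMIs over both knockouts were compared. Intervals are exact at 95%, conditional binomial for ratios, Poisson for sums and Clopper-Pearson for shares, and cover counting error only. With 1 library a group there is no test. Named genes were the 12 highest and 12 lowest with at least 50 CPM in 1 knockout, members of lists past 2-fold, and *Mgp*, *Pdgfra*, *Sox5* and *Dpp4*. The cell sets, gene lists and rules were chosen with earlier results of these data known. Gene models without a name were left out of the ranking, and 1 listed gene had no row. A gene selected by this rule, other than those printed, is not reported here. Scripts ran in Python 3.11.15 with numpy 2.4.6, scipy 1.17.1 and pandas 2.3.3 and were tested on simulated data. Alternatives covered depth, mitochondrial limit, thinning, sex, doublets, scaling and the count minimum.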

Additional observations from a re-analysis of the deposited data

Results flagged for a closer look

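Some ratios of *Pd*-KO over *Mgp*-KO had opposite signs in female and in male cells; the difference between the sexes was not tested, and all values are log2 ratios. In *Pdgfra* ≥1 cells, *Pdgfra* itself was at -0.23 in female and 0.20 in male cells. The activin subunit gene *Inhbb* was at -1.98 in female and 1.58 in male cells, and the epithelial gene *Wfdc2* at -2.33 and 0.91. In free RNA *Wfdc2* was at 17.6 CPM in *Pd*-KO and 338 in *Mgp*-KO, and the part of free RNA in its ratios was not tested. In endothelial cells, the chemokine gene *Ccl2* was at 3.41 (1.44 to 9.32, from 47 UMIs against 1) in female and -2.81 in male cells. *Ccl21a*, a chemokine of lymphatic vessels, had 130 UMIs against 0 in females and 0 against 80 in males, so with a limit of 3 counts it was at least 14.6-fold higher (log2 3.87) in female and at least 187-fold lower (log2 -7.55) in male cells of *Pd*-KO. In mural cells, the secreted Wnt modulator *Sfrp2* was at -2.73 in female cells and, with 64 UMIs against 0, at least 2.35-fold higher (log2 1.23) in male cells.

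*AY036118* was abundant in free RNA, which the comparisons of cells do not use, at 4683 CPM in *Pd*-KO, 492 in *Mgp*-KO and 2387 in wild-type.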

How the results depend on the processing

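No paired analysis was possible because each genotype has 1 library, and for the same reason no replicate could be left out. Of 155 alternative values of the main results, 100 stayed within 1.5 times a count or within the counting interval of a value, and 55 did not; every alternative kept the direction of the *Mgp* ratios and of the class shares. The alternatives without the cell with most *Mgp*, with APCs alone, and with doublets called without the APC list were chosen after seeing the data. The causes were not tested, but thinning, one sex and a higher gene minimum leave fewer genes by construction.

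The log2 ratio of *Mgp* in *Pdgfra* ≥1 cells (1.46) was 0.74 with thinned cells, 2.42 in male cells, 0.80 without cells that passed 2 or more lists and 0.53 in APCs. In *Pdgfra* 0 cells (4.11) it was 3.8 with at least 4000 UMIs a cell, 7.40 in female and 0.67 in male cells, 2.76 without cells of 2 or more lists, 4.42 with cells weighted equally and 7.14 without the top *Mgp* cell. The lower bound in endothelial cells (3.92) was 4.18 and 2.38 with at least 1000 and 4000 UMIs, 2.97 thinned, 1.17 in female and 1.22 in male cells, and 3.64 without the top cell. In mural cells (5.64) it was at least 2.75 in male cells and 8.0 without the top cell.

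Genes past 2-fold in *Pdgfra* ≥1 cells (1059) numbered 427 thinned, 670 in male cells, and 2033 and 501 with at least 20 and 500 UMIs a gene. In *Pdgfra* 0 cells (1634) they numbered 1068 thinned, and 2769 and 831 with those minimums. In endothelial cells (337) they numbered 198 thinned, 154 in female cells and 154 without cells of 2 or more lists. In mural cells (554) they numbered 306 thinned, 273 in female and 264 in male cells, and 124 without cells of 2 or more lists.

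The difference in the share of cells with a *Pdgfra* UMI (-0.08 points) was 3.05 at 4000 UMIs, 2.59 with a mitochondrial limit of 5%, -2.56 thinned, -3.66 in male cells and 4.90 without cells of 2 or more lists, so its sign was not stable. The endothelial difference (20.1 points) was 17.5 at 4000 UMIs, 9.71 thinned, 17.7 in male cells and 12.2 without cells of 2 or more lists. The mural difference (12.6) was 10.9 at 1000 UMIs, 9.90 with the limit of 5%, 4.18 thinned and 1.08 without cells of 2 or more lists. The epithelial difference (-11.1) was -14.3 at 4000 UMIs, -5.51 thinned, -12.9 in female and -4.11 in male cells, and -9.11 without cells of 2 or more lists. The APC difference (-26.5) was -18.0 at 4000 UMIs, -23.4 with the limit of 5%, -10.2 thinned, -31.9 in male cells and -14.6 without cells of 2 or more lists.

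Of 98 named genes in a cell set past 2-fold, 1124 of 1126 alternative values kept their direction. The alternatives reuse the cells that selected these genes, so agreement is partly built in. The 2 exceptions were *Tnfaip6* in mural cells, at 0.83 in male cells and 0.34 without cells of 2 or more lists. Of the lists in *Pdgfra* ≥1 cells, 12 had a median above that of all genes, and 11 to 14 did over the alternatives.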
